A study of Homo sapiens with 6 samples.

Results

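Small leucine-rich proteoglycans (SLRPs) were followed in 22Rv1, an established line of human prostate carcinoma epithelial cells, through repeated DNA damage. The genes were LUM, DCN, BGN, FMOD, PRELP, ASPN, OGN, KERA and EPYC, taken by gene symbol as 9 of the 29804 symbols in the count table. LUM and DCN were chosen on their measured levels in 6WP against WT cells, with results of these data already known, and the other members were added because they belong to the same family. RNA-seq was carried out on 6 libraries in 3 groups of 2 biological replicates. WT cells had never met the drug and were taken at week 0. Age matched (AM) cells were grown in parallel for 6 weeks, also untreated. 6WP cells were exposed on every week day of those 6 weeks to 1 µg/ml of phleomycin, a radiomimetic drug that breaks DNA. No genotype differed between the groups, and all came from the same cell line.

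SLRPs are secreted proteins built from leucine-rich repeats, most of which carry chondroitin, dermatan or keratan sulfate chains. They bind collagen fibrils and set their spacing, and they also bind growth factors and receptors, among them TGF-beta, EGFR and toll-like receptors. In the prostate they are known chiefly as products of stromal fibroblasts and smooth muscle rather than of the epithelium. DCN, BGN and ASPN form the first class of the family, LUM, FMOD, PRELP and KERA the second, and OGN and EPYC the third.

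Library totals ranged from 21222201 to 35311945 counts, so that a floor of 3 counts corresponded to between 0.0883 and 0.138 CPM (counts scaled to a common library size with TMM factors). The replicates of 6WP stood further apart than the others, with a chi-square of 67.2 per degree of freedom, compared with 5.83 in WT and 9.36 in AM cells, where a value of 1 is given by counting error. Markers of luminal prostate epithelium were high in every library, with summed levels of 3930 and 4175 CPM in WT, 2769 and 3123 CPM in AM, and 3358 and 4698 CPM in 6WP cells. All 12 of these markers passed the filter on low counts. WT cells were harvested at week 0 and the others at week 6, so harvest and time in culture cannot be told apart in any comparison with WT. Tests measure the spread between these pairs of libraries.

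Of the 9 members, 4 passed the filter on low counts (LUM, DCN, BGN and FMOD). LUM and DCN were far lower in both of the groups harvested at week 6 than in WT, BGN was highest in 6WP cells, and FMOD was highest in AM cells. OGN, KERA and EPYC had 0 counts in every library, which allows a level of up to 0.0883 to 0.138 CPM depending on the library. PRELP had 1 count in 1 WT library and 2 counts in 1 6WP library, and ASPN had 1 count in 1 AM library. DCN passed the filter through its WT level alone, so a fall of this gene is built into its presence among the tested genes, whereas LUM had at least 10 counts in every library.

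**Figure D1:**
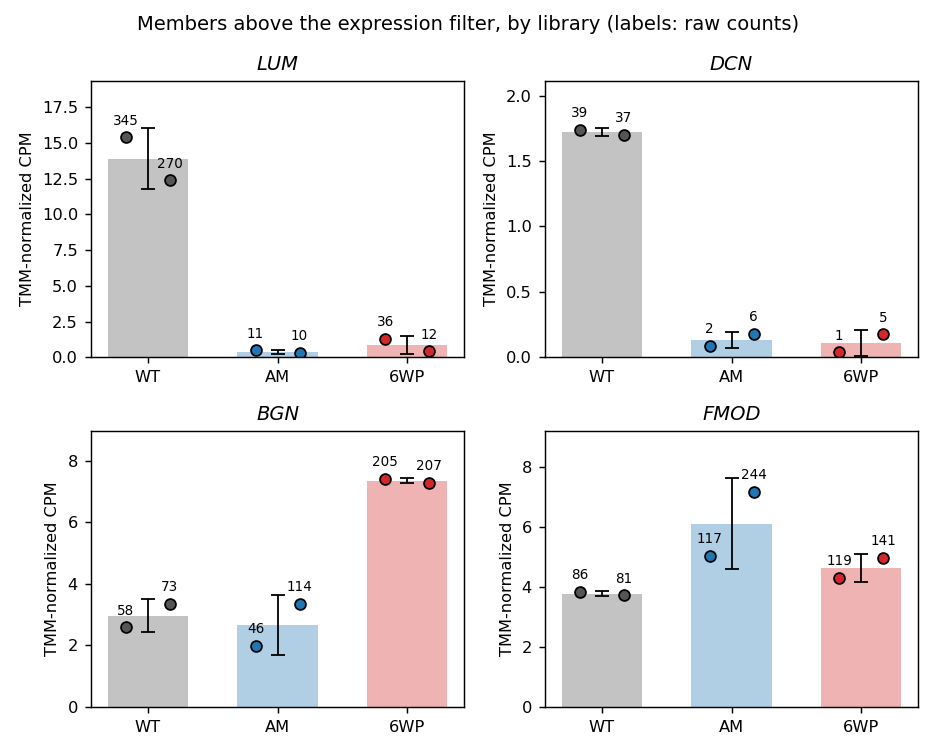
TMM-normalized level in CPM (vertical axis, one linear scale per gene, starting at 0) of the 4 members above the filter in WT, AM and 6WP cells. Points are single libraries labelled with their raw counts, bars are means and error bars are the SD over 2 libraries; LUM and DCN stand high in WT only, BGN in 6WP (205 and 207 counts), and FMOD in AM.

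For the members expressed in these cells, the 250 bases upstream of the RefSeq start are shown where the RefSeq promoter table (GRCh38.p14) has an entry, which applied to 6 of the 9 members and, among the expressed ones, to BGN and FMOD. LUM, DCN and KERA have no entry. The windows are chrX:153494730-153494979 on the plus strand for BGN and chr1:203351123-203351372 on the minus strand for FMOD, each written 5′ to 3′. The RefSeq start of FMOD lies inside the GENCODE v44 locus used for positions here, so its window is within that locus, while the starts of BGN coincide. Capitals mark matches, on either strand, to the TATA box (TATAAA), the GC box (GGGCGG), the CCAAT box (CCAAT) and the AP-1 site (TGACTCA).
BGN: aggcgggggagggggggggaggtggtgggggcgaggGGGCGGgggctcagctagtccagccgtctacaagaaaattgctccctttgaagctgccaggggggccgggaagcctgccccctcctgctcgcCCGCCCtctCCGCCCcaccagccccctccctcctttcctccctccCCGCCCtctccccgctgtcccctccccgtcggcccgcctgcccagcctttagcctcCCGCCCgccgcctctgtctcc
FMOD: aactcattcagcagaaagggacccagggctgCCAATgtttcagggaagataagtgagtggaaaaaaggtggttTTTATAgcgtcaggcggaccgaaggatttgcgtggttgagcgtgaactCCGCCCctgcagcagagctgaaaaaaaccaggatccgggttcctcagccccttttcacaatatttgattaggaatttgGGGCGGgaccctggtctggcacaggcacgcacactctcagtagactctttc
The BGN window was 74% GC, above 87.7% of the 35116 promoter windows, whereas the FMOD window was 51.6% GC, below the median of 58%. BGN had 16 CpG dinucleotides and 5 GC boxes, and none of the other motifs searched. FMOD had 9 CpG dinucleotides, 1 TATA box, 2 GC boxes and 1 CCAAT box. No match overlapped another. Over all windows, a TATA box was present in 10.7%, a GC box in 42.6%, a CCAAT box in 32% and an AP-1 site in 4.2%. These are matches of letters in a fixed window and describe the sequence.

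LUM encodes lumican, a keratan sulfate proteoglycan that regulates the diameter and packing of collagen fibrils. The gene lies on the minus strand at chr12:91102629-91111494 (GRCh38, GENCODE v44). It was read with 345 and 270 counts in the WT libraries, 11 and 10 counts in AM, and 36 and 12 counts in 6WP. Each WT library lay far above the other 4 libraries, and the AM and 6WP libraries overlapped once scaled to depth. Mean levels were 13.9 ± 2.12 CPM in WT, 0.384 ± 0.127 CPM in AM and 0.862 ± 0.621 CPM in 6WP cells (SD, n = 2). In bulk RNA, fewer cells that express a gene and less RNA per cell cannot be told apart.

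Relative to WT, LUM was lower by a log2 fold change of -5.21 (SE 0.46) in AM and of -4.01 (SE 0.41) in 6WP cells. The depth-scaled ratio of WT over AM was 37.9, with an exact interval (95%) of 24.6 to 61.7, and that of WT over 6WP was 16.3 (12.1 to 22.3). These intervals, like the floors, cover counting error only. The difference between 6WP and AM was 1.20 (SE 0.56) on the log2 scale, and it fell to 0.19 without 6WP replicate 1, the library that held 36 of the 48 counts in that group. The same library set the size of the fall from WT, which was -5.04 without it and -3.44 without 6WP replicate 2.

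DCN encodes decorin, a chondroitin or dermatan sulfate proteoglycan that decorates collagen fibrils, sequesters TGF-beta and binds EGFR and MET. The gene lies 29 kb from LUM on the same strand, at chr12:91140484-91183217. It had 39 and 37 counts in WT, 2 and 6 counts in AM, and 1 and 5 counts in 6WP. The WT libraries were nearly equal to one another, and 1 library in each of the other groups lay below the floor of 3 counts. Mean levels were 1.72 ± 0.0293 CPM in WT, 0.131 ± 0.0640 CPM in AM and 0.106 ± 0.0990 CPM in 6WP cells (SD, n = 2).

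DCN was lower than in WT by a log2 fold change of -3.59 (SE 0.52) in AM and of -3.95 (SE 0.55) in 6WP cells. The depth-scaled count ratio of WT over AM was 12.3 (95% exact interval 5.94 to 29.5) and that of WT over 6WP was 16.1 (7.05 to 45.2). The fall in 6WP was -5.42 without 6WP replicate 2 and -3.27 without 6WP replicate 1, while the fall in AM was -4.26 without AM replicate 2. Between 6WP and AM the ratio was 0.766 (0.219 to 2.52), so no difference was detectable at this depth.

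LUM and DCN were lower than WT in the untreated AM cells as well as in the treated 6WP cells. The comparisons with WT share the WT libraries, so their values stand side by side and do not add to one another. Over all 14672 genes tested, 3.00% were called in 6WP against WT at an adjusted p-value under 0.05 (edgeR's quasi-likelihood test), 1.63% as higher and 1.37% as lower. LUM and DCN, chosen on that comparison, were the 2 members called lower in it. In AM against WT 17.7% of all genes were called, 7.74% as higher and 9.93% as lower. The 2 members called lower there were again LUM and DCN. No test is read from these calls because the same WT libraries chose the genes.

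**Figure D2:**
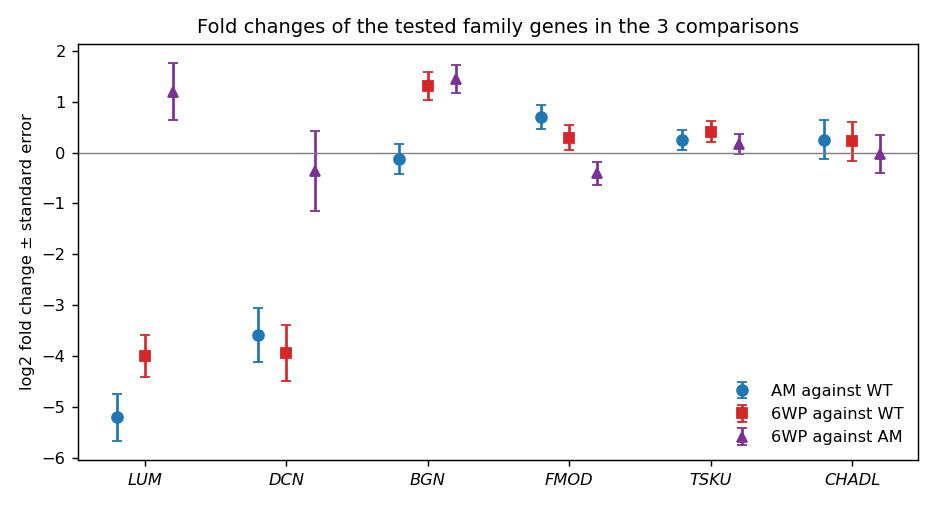
Log2 fold change (vertical axis) of the 4 tested members and of TSKU and CHADL, further genes of the family, in AM against WT, 6WP against WT and 6WP against AM, with bars of 1 standard error from the fit over all genes. LUM and DCN lie between -5.21 and -3.59 against WT, and BGN lies above 1 in both comparisons of 6WP cells.

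LUM and DCN belong to a cluster on chromosome 12 that also holds KERA, a keratan sulfate proteoglycan of the cornea, and EPYC, a proteoglycan of cartilage. The 4 genes span 220 kb on the minus strand. EPYC lies at chr12:90963682-91005026 and KERA at chr12:91050491-91058024, and both had 0 counts throughout. Within 500 kb of LUM and DCN, the other genes with a row in the count table were CCER1, with 0 counts, and LINC00615, with 1 count in all 6 libraries. Of the genes with a row in this interval, LUM and DCN were the expressed ones.

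**Figure D3:**
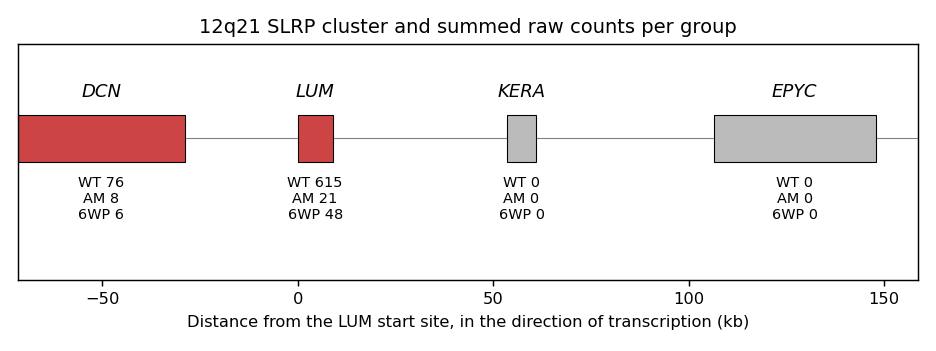
The SLRP cluster on chromosome 12 drawn to scale, with distance from the LUM start site in kb in the direction of transcription (horizontal axis) and the raw counts summed over the 2 libraries of each group under each gene. LUM and DCN, in red, carried 615 and 76 counts in WT, and KERA and EPYC, in grey, carried 0.

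Several genes followed LUM or DCN closely over the 6 libraries, although correlation takes no account of the size of a change. Of 12037 genes compared, the 5 most like LUM in log2 CPM were APC, BBS9, ARHGEF28, OPN3 and TBC1D1, with Pearson's r between 0.9958 and 0.9992. The nearest in size of change were ARHGEF28 and OPN3, each at -1.74 in AM against WT, compared with -5.21 for LUM. The 5 most like DCN were ANKRD10, TENM1, SH3BP5L, RNF144A and PKP2, with r between 0.9904 and 0.9946, and the correlation between LUM and DCN was 0.87. The 6 points fall into a high WT pair and 4 low libraries, so these values describe that shared split.

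BGN encodes biglycan, a chondroitin or dermatan sulfate proteoglycan close in sequence to DCN, which in soluble form is a ligand of toll-like receptors. It lies on the plus strand at chrX:153494980-153509546. It had 58 and 73 counts in WT, 46 and 114 counts in AM, and 205 and 207 counts in 6WP. Both 6WP libraries lay above every other library, and the WT and AM libraries overlapped. Mean levels were 2.97 ± 0.540 CPM in WT, 2.67 ± 0.973 CPM in AM and 7.35 ± 0.0834 CPM in 6WP cells (SD, n = 2).

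BGN was higher in 6WP than in AM cells by a log2 fold change of 1.44 (SE 0.28, edgeR's quasi-likelihood test, adjusted p = 0.0123). The depth-scaled count ratio was 2.63 (95% exact interval 2.18 to 3.17). The call was lost without AM replicate 1 (1.13, adjusted p = 0.0975 by the edgeR test) and without AM replicate 2 (1.89, adjusted p = 0.0557), which leave 1 library in that group. Against WT, the values of 6WP were higher by 1.31 (SE 0.28) on the log2 scale, given without a test, and AM differed from WT by -0.13 (SE 0.29, edgeR adjusted p = 0.773). In 6WP against AM, 21.3% of all genes were called, 11.7% as higher and 9.68% as lower, and BGN was the 1 member called among the 4 tested.

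The first bases of BGN lie within the locus of HAUS7, an augmin subunit gene on the opposite strand (chrX:153447668-153495516), although no exons of the pair overlap in the annotation. In 6WP against AM, HAUS7 moved the other way from BGN, with a log2 fold change of -1.03 (edgeR adjusted p = 0.00842). In AM against WT it was higher by 0.96 (edgeR adjusted p = 0.0122), where BGN differed by -0.13. In 6WP against WT it differed by -0.07 (edgeR adjusted p = 0.857), where BGN was higher by 1.31. Of the 20 tested neighbours within 500 kb of BGN, 6 were called in 6WP against AM, beside 21.3% of all genes. Higher were SLC6A8, the creatine transporter, at 0.53 (edgeR adjusted p = 0.0142) and L1CAM, a cell adhesion molecule, at 1.36 (adjusted p = 0.025). The 4 called lower were HAUS7, MAGEA1 (-0.78), BCAP31 (-0.51) and SSR4 (-0.40).

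FMOD encodes fibromodulin, a keratan sulfate proteoglycan that binds collagen and guides its cross-linking. It lies on the minus strand at chr1:203340628-203351758. It had 86 and 81 counts in WT, 117 and 244 counts in AM, and 119 and 141 counts in 6WP. Scaled to depth, the WT libraries were the lowest pair and the AM libraries the highest, with 6WP between them and no overlap between groups, although the nearest AM and 6WP libraries were 5.04 and 4.97 CPM. Mean levels were 3.78 ± 0.0838 CPM in WT, 6.11 ± 1.52 CPM in AM and 4.64 ± 0.471 CPM in 6WP cells (SD, n = 2).

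The difference in FMOD between AM and WT was 0.70 on the log2 scale (SE 0.24, edgeR's quasi-likelihood test, adjusted p = 0.0753), which missed the threshold. It passed when AM and WT were fitted alone (0.71, edgeR adjusted p = 0.00774), but not by the Wald test of DESeq2 (0.71, adjusted p = 0.07). The difference was 0.92 without AM replicate 1 and 0.40 without AM replicate 2. It was 0.73 without WT replicate 1 and 0.70 without WT replicate 2. Without 6WP replicate 1 it was 0.70, and without 6WP replicate 2 it was 0.71. 6WP differed from AM by -0.41 (SE 0.23, edgeR adjusted p = 0.233) and from WT by 0.29 (SE 0.24). In the fit of all 6 libraries, groups that do not overlap with 2 libraries each were thus not separated by the test. AM and WT were separated in the edgeR fit without the 6WP libraries.

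PRELP, which links basement membranes to collagen, lies 124 kb from FMOD at chr1:203475806-203491352 and stayed at or below 2 counts in every library. ASPN (asporin, chr9:92456205-92482506), a TGF-beta-binding member without a glycosaminoglycan attachment site, and OGN (osteoglycin, chr9:92383268-92404696) lie 51.5 kb apart and had 1 and 0 counts in total. Of the 10 tested neighbours of FMOD within 500 kb, 5 were called in AM against WT, beside 17.7% of all genes. ADORA1, an adenosine receptor, was higher by 1.33 (edgeR adjusted p = 0.0177), and CYB5R1 by 0.39. Lower were ATP2B4, a calcium pump (-0.64), BTG2, an antiproliferative p53 target (-0.57), and ZBED6 (-1.33, edgeR adjusted p = 0.00573), whose locus shares its start and strand with ZC3H11A, so that reads may be split between them.

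The order of the members changed between groups. Per kilobase of the canonical transcript, LUM had the highest level in WT (5.21 RPKM), followed by FMOD (1.28 RPKM) and BGN (1.26 RPKM), whose difference lay within the spread of replicates. In AM, FMOD stood first (2.08 RPKM), then BGN (1.13 RPKM) and LUM (0.144 RPKM). In 6WP, BGN stood first (3.13 RPKM), then FMOD (1.58 RPKM) and LUM (0.323 RPKM). DCN was the lowest of the 4 in each group with its long canonical transcript (0.251 RPKM in WT). With the median length of coding transcripts its level in WT was 2.09 RPKM, which placed it second, so its place depends on the length used.

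The family's genes outside the 9 members gave 2 further tested genes. TSKU, encoding tsukushi, a secreted modulator of BMP and Wnt signals, was the most abundant gene of the family, at 53.3 ± 3.09 CPM in WT, 63.5 ± 10.9 CPM in AM and 71.0 ± 19.5 CPM in 6WP cells. Its differences were 0.25 in AM and 0.41 in 6WP against WT and 0.16 in 6WP against AM, and none passed the test (edgeR adjusted p = 0.389, 0.264 and 0.587). CHADL, a collagen-binding member whose exons overlap those of L3MBTL2 on the opposite strand, was measured at 2.07 to 2.41 CPM on average. It gave edgeR adjusted p-values of 0.675 to 0.969. OMD, OPTC and NYX had 0 counts, and ECM2, CHAD, PODN and PODNL1 had at most 5 counts in any library.

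Markers of the cell types that usually make SLRPs were low. Of 12 fibroblast and stromal markers in the table, 4 passed the filter, and PDPN and SFRP2 were at 0. Their summed level was 42.1 and 43.2 CPM in WT, 36 and 42.5 CPM in AM, and 37 and 50.4 CPM in 6WP, most of it from FBLN1. COL1A2 had at most 2 counts and POSTN at most 1 count in any library. COL1A1 was at 2.46 and 2.02 CPM in WT, 1.64 and 1.00 CPM in AM, and 1.88 and 1.52 CPM in 6WP. The stromal sums overlapped between WT and each of the other groups. COL1A1 was lower in each library outside WT but was not called. Its log2 fold change against WT was -0.79 in AM (edgeR adjusted p = 0.131) and -0.40 in 6WP (adjusted p = 0.501). COL3A1 overlapped between WT and each of the other groups. COL3A1 was at 0.848 and 0.643 CPM in WT, 1.12 and 0.471 CPM in AM, and 1.77 and 0.74 CPM in 6WP. PDGFRB was lower in AM (0.0431 and 0.206 CPM) than in WT (0.446 and 0.276 CPM), and overlapped WT in 6WP (0.506 and 0.317 CPM). Those levels rest on few reads, with 10 and 6 counts in WT, 1 and 7 counts in AM, and 14 and 9 counts in 6WP. PDGFRA did not follow PDGFRB, with 1 and 0 counts in WT, 10 and 0 counts in AM, and 0 and 4 counts in 6WP. The part of stromal markers in the values of LUM and DCN was not tested. Smooth muscle and pericyte markers summed to 18.4 to 20.8 CPM in WT, 11.4 to 12.2 CPM in AM and 16 to 19.9 CPM in 6WP, with MYH11 and DES at 0. The smooth muscle sums, like the luminal ones, were lower in AM than in WT, and their part was not tested either. Endothelial markers reached at most 0.138 CPM, and leukocyte markers 2.35 to 3.7 CPM with PTPRC and CD3E at 0.

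Of 17 listed receptors and growth factors that bind SLRPs, 13 were tested. In AM against WT 9 were called lower and 1 higher, beside 9.93% and 7.74% of all genes, with a median log2 fold change of -1.02, compared with -0.0023 over all genes. In 6WP against AM 6 were called higher and 0 lower, beside 11.7% and 9.68% of all genes, where 7 and 2 had an unadjusted p-value under 0.05 and the Wald test of DESeq2 called 6 and 1, with a median of 1.12 compared with 0.0482 over all genes. In 6WP against WT the edgeR test called CTGF, as lower, while the Wald test of DESeq2 called 1 higher and 3 lower, and the median was -0.20. Without any 1 of the AM or WT libraries, 1 gene was called lower in AM against WT. The calls in 6WP against AM were lost without either AM library.

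CTGF, the connective tissue growth factor bound by decorin, differed furthest from WT among these genes. It had 262 and 397 counts in WT, 35 and 42 counts in AM, and 104 and 107 counts in 6WP. The 3 groups did not overlap, with 6WP between AM and WT. CTGF fell in AM against WT by a log2 fold change of -3.46 (edgeR adjusted p = 0.00157) and in 6WP against WT by -1.99 (adjusted p = 0.00899), and it was 1.47 higher in 6WP than in AM (adjusted p = 0.0129).

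LRP1, an endocytic receptor for decorin, was at 18.3 ± 2.52 CPM in WT, 3.70 ± 0.971 CPM in AM and 13.7 ± 6.01 CPM in 6WP cells (SD, n = 2). It fell by a log2 fold change of -2.29 in AM against WT (edgeR adjusted p = 0.00631) and was 1.87 higher in 6WP than in AM (adjusted p = 0.00903). ERBB4 and IGF1R, receptor tyrosine kinases, were also lower in AM than in WT, by log2 fold changes of -1.55 (edgeR adjusted p = 0.0104) and -1.45 (adjusted p = 0.041). The call of IGF1R was lost by the Wald test of DESeq2 (adjusted p = 0.0542) and without any 1 WT or AM library (edgeR adjusted p = 0.17 to 0.205). Its 6WP libraries differed widely, with 1670 and 4911 counts.

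Of the receptors that decorin binds, EGFR was lower in AM than in WT by a log2 fold change of -0.72 (edgeR adjusted p = 0.0128) and MET by -0.59 (adjusted p = 0.0433). The toll-like receptors that biglycan binds were scarcely read, with 1 to 16 counts for TLR2 and 0 counts for TLR4. TGFB1, the ligand bound by decorin, biglycan and fibromodulin, was the gene called higher in AM than in WT, by 1.52 (edgeR adjusted p = 0.00692), whereas TGFB3 was lower by a log2 fold change of -0.84 (adjusted p = 0.0479).

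**Figure D4:**
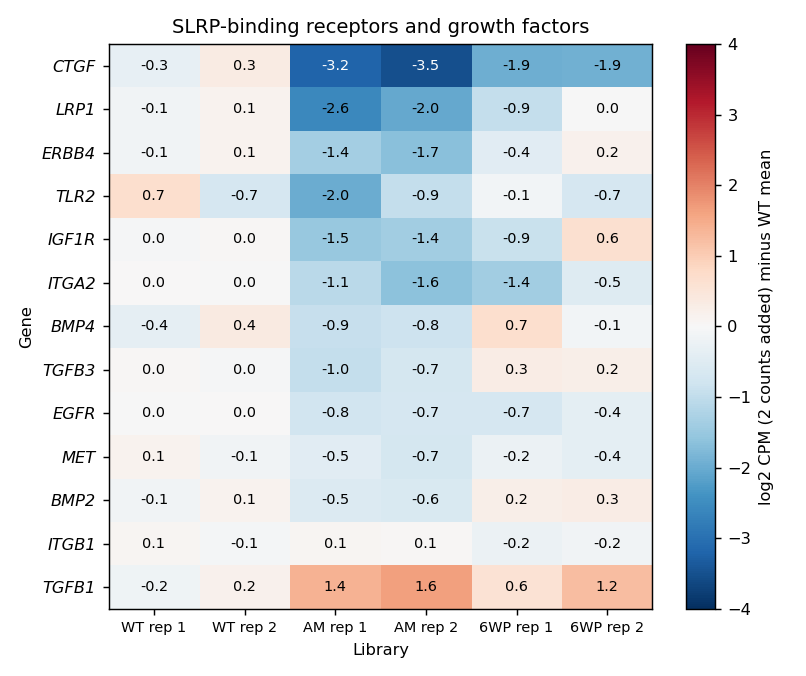
Log2 CPM with 2 counts added, minus the mean of the WT libraries, for the 13 tested SLRP-binding receptors and growth factors (rows) in the 6 libraries (columns), with the value in each cell. Most rows are blue in the AM libraries, deepest for CTGF, LRP1 and ERBB4, and TGFB1 is red there.

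TGF-beta receptors, SMADs and response genes moved in both directions. Of 14 tested, 5 were called lower and 3 higher in AM against WT, beside 9.93% and 7.74% of all genes. In 6WP against AM 5 were called higher and 2 lower, beside 11.7% and 9.68% of all genes. The median log2 fold changes were -0.44 and 0.56, compared with -0.0023 and 0.0482 over all genes. The number called in AM against WT moved when 1 library was left out. TGFBI, a collagen-binding protein induced by TGF-beta, had 28 and 42 counts in WT, 7 and 13 counts in AM, and 38 and 48 counts in 6WP. It was lower in AM than in WT by a log2 fold change of -2.18 (edgeR adjusted p = 0.0119) and higher in 6WP than in AM by 2.13 (adjusted p = 0.0105). In 6WP against WT, the inhibitor SMAD7 was higher by 0.59 (edgeR adjusted p = 0.0431) and LTBP1, which stores latent TGF-beta in the matrix, was lower by a log2 fold change of -0.80 (adjusted p = 0.0175). With either AM library left out, the calls of this list in 6WP against AM were lost.

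Levels of fibrillar and fibril-associated collagens differed widely between genes. In WT, mean levels were 15.7 CPM for COL14A1 and 13.3 CPM for COL5A2, compared with 2.24 CPM for COL1A1, 0.746 CPM for COL3A1 and 0 for COL5A1. Of 20 genes for fibrillar collagens and fibril assembly, 14 were tested. In AM against WT 4 were called lower (COL5A2, COL12A1, COL14A1 and THBS1) and 0 higher, beside 9.93% and 7.74% of all genes. The Wald test of DESeq2 called 3 lower and 1 higher, and the number of calls moved when 1 library was left out. Of these 4, COL12A1, a fibril-associated collagen, had the largest difference, with a log2 fold change of -2.20. It had 15 and 11 counts in WT, 5 and 2 counts in AM, and 10 and 8 counts in 6WP. Like DCN, COL12A1 passed the filter through its WT level alone. A fall from WT is thus built into its presence among the tested genes, and no test is read from its call. COL5A2, a fibrillar collagen chain, was lower in AM than in WT by a log2 fold change of -1.003 (edgeR adjusted p = 0.0138). It was higher in 6WP than in AM by 1.08 (edgeR adjusted p = 0.00954). The comparisons of AM with WT and of 6WP with AM share the AM libraries, so opposite signs in the pair of them are not independent.

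Calls among the enzymes that build the sugar chains are given beside the shares over all genes. Of 21 tested genes of chondroitin and dermatan sulfate synthesis, 2 were called higher (B3GAT3 and CHPF) and 0 lower in AM against WT. Over all genes these shares were 7.74% and 9.93%. In 6WP against AM 2 were called higher and 0 lower, beside 11.7% and 9.68% of all genes. The 2 called in 6WP against AM were XYLT2, which starts the chain on the core protein, by 0.61 (edgeR adjusted p = 0.0464), and DSEL, a dermatan sulfate epimerase, by 1.01 (adjusted p = 0.0262). The 6WP libraries differed widely in DSEL, with 6524 and 12570 counts. Of 7 tested genes of keratan sulfate synthesis, 1 was called lower in AM against WT, beside 9.93% of all genes. It was ST3GAL2, a sialyltransferase, with a log2 fold change of -1.55 (edgeR adjusted p = 0.0106). Of 12 genes that supply sugar nucleotides and sulfate, 2 were called lower and 0 higher in 6WP against AM, beside 9.68% and 11.7% of all genes. UGDH, which makes UDP-glucuronic acid, was lower in 6WP than in AM by -0.74 (edgeR adjusted p = 0.0108), as was UGP2 by -0.49 (edgeR adjusted p = 0.0179).

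Of 10 proteases that cleave SLRPs, 3 were tested. In AM against WT 2 were called lower and 0 higher, beside 9.93% and 7.74% of all genes. In 6WP against AM 2 were called higher and 0 lower, beside 11.7% and 9.68% of all genes. In 6WP against WT 1 was called lower and 0 higher, beside 1.37% and 1.63% of all genes. ADAMTS1 was lower by a log2 fold change of -1.60 in AM (edgeR adjusted p = 0.00179) and of -0.86 in 6WP (adjusted p = 0.0242) against WT. Between 6WP and AM, ADAMTS1 was higher in 6WP by 0.745 (edgeR adjusted p = 0.0125). MMP14, a membrane-bound metalloproteinase, was lower in AM than in WT by -1.12 (edgeR adjusted p = 0.0287) and higher in 6WP than in AM by 1.32 (adjusted p = 0.0136). Its difference between 6WP and WT was 0.20 (SE 0.25, edgeR adjusted p = 0.671).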

How the data were processed

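RNA from 6 libraries of 22Rv1 cells was sequenced with a stranded kit, per the labels. The values deposited by the authors are raw read counts per gene symbol with no scaling applied. The submitters' processing notes name STAR 2.5.3a, StringTie 1.3.3, featureCounts 1.5.3, edgeR 3.22.3, R 3.5.0 and hg38. The annotation and strand setting of the counting are not given in the sources used here, so reads of genes that overlap on opposite strands may be mixed.

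The counts were analysed with R 4.3.3, edgeR 4.0.16 and, as an alternative, DESeq2 1.42.0. filterByExpr kept 14672 genes. TMM factors (0.962 to 1.026) were computed, and all 6 libraries entered 1 quasi-likelihood fit with group as the sole term (common dispersion 0.0173). Tests were two-sided, with Benjamini-Hochberg adjustment over these genes and calls at an adjusted p-value under 0.05. CPM are TMM normalized, and RPKM divide them by transcript length. Count ratios have exact binomial intervals at a confidence level of 95%. The fit was tested on simulated data before use. Positions are from GENCODE v44, matched by symbol for 21708 of 29804 symbols, and promoters from RefSeq.

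The members and all gene lists were chosen with earlier results of these data known. No p-value is given for LUM and DCN, or for any member in 6WP against WT. All members were named in every library, with genes of a list called in at least 1 comparison, the 5 genes most like LUM and DCN among those averaging 1 log2 CPM or more, and genes within 500 kb. Levels with median coding transcript length were added after seeing the data. Alternatives were DESeq2's size factors, library size alone, other filters, the DESeq2 test, fits of 2 groups, a replicate block and leaving out each library.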

Additional observations from a re-analysis of the deposited data

How the results depend on the processing

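LUM, DCN, BGN and FMOD kept the direction of their main differences (6WP and AM against WT for LUM and DCN, 6WP against AM for BGN, AM against WT for FMOD) under every alternative that gave a value. DCN was not tested with a minimum of 10 counts in every library. Leaving out 1 library at a time gave DCN -5.42 to -3.27 in 6WP and -4.26 to -3.26 in AM against WT, and BGN 1.13 to 1.89 in 6WP against AM. IGF1R in 6WP against WT ranged from -0.905 to 0.624, turning negative without 6WP replicate 2. The number of genes called (440 in 6WP against WT, 3131 in 6WP against AM, 2593 in AM against WT) depended on the fit. In 6WP against WT it was 894 without a filter, 1124 by the Wald test of DESeq2 and 96 with the 2 groups alone, and 0 to 3870 when 1 library was left out. The edgeR test called 0 without either WT library, where 1456 and 1900 genes had an unadjusted p-value under 0.05. With the 2 groups alone it called 1309 in 6WP against AM and 6620 in AM against WT, and leaving out 1 library gave 116 to 6807 and 67 to 6654. The cause was not tested. Counts of members and list genes past the threshold moved with these totals.

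Same-numbered libraries did not deviate together (correlations of 0.04, 0.087 and -0.021), so no pairing by replicate number was seen in the values. With 1 pair of libraries per group, this cannot show whether the samples were paired when grown. A replicate block gave 393, 3069 and 2485 calls and 1.48 for BGN in 6WP against AM (edgeR adjusted p = 0.00942), and it changed no call of BGN or FMOD. With 1 to 12 counts in several libraries, depth limits LUM and DCN in AM and 6WP.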

Other observations

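Proteoglycan core proteins outside the SLRP family were also measured, and 21 of 26 listed genes were tested. In AM against WT 5 were called lower and 1 higher by edgeR's quasi-likelihood test, beside 9.93% and 7.74% of all genes. In 6WP against AM 3 were called higher and 2 lower, beside 11.7% and 9.68% of all genes. BCAN was among those called higher, with 11 and 8 counts in WT, 5 and 4 counts in AM, and 23 and 21 counts in 6WP. It passed the filter through its 6WP libraries, so a rise in 6WP is built into its presence among the tested genes. No test is read from its call. The median log2 fold changes were -0.40 and 0.07, compared with -0.0023 and 0.0482 over all genes. PTPRZ1, a receptor phosphatase that carries chondroitin sulfate, was lower in AM than in WT by a log2 fold change of -3.07 (edgeR adjusted p = 0.00498) and higher in 6WP than in AM by 2.23 (adjusted p = 0.0118). HSPG2, the heparan sulfate proteoglycan perlecan of basement membranes, followed the same order, at -1.55 (edgeR adjusted p = 0.0404) and 1.43 (adjusted p = 0.0432). GPC1, a membrane-anchored glypican, went the other way, higher in AM than in WT by 0.85 (edgeR adjusted p = 0.0234) and lower in 6WP than in AM by -0.95 (adjusted p = 0.0139). CSPG5 was lower in 6WP than in WT by -0.84 (edgeR adjusted p = 0.0399) and than in AM by -1.20 (adjusted p = 0.00447). The calls rest on both libraries of a group: the 5 lower calls in AM against WT were all lost without either WT library or without AM replicate 2.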
